A study of Mus musculus with 6 samples.

Results

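The collagen genes of carcinogen-induced mouse liver tumors were examined by genotype and by single tumor. Members were all rows of the expression table whose symbol consists of Col, a type number, the letter a and a chain number, which gave 44 of 30236 genes. They comprised 6 fibrillar collagens (types I, III and V), 8 basement membrane collagens (types IV, XV and XVIII) and 30 others. After a filter that removed the weakest 25% of all genes, 42 collagens were tested among 22677 genes. Col9a1 and Col26a1 fell below the filter, with log2 values from -1.48 to -1.22. RNA came from 3 WT tumors and 3 Top1mt-KO tumors. Top1mt encodes the mitochondrial type IB topoisomerase, which relaxes mitochondrial DNA. The animals were male C57BL/6 mice from heterozygous breeding, raised over several litters, and which tumors shared a litter is not given in the sources used here. The KO was inherited and thus present in every cell of the host and not only in the tumor. Both genotypes received the mutagen diethylnitrosamine on day 14 after birth and the hepatotoxin carbon tetrachloride 2 times per week for 14 weeks from week 8, and hepatocellular carcinomas were taken at 22 weeks. Untreated liver and tumor-free liver were not analysed here, so the values compare tumors with tumors.

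Collagens are the main structural proteins of the extracellular matrix and are built from alpha chains wound into a triple helix. Fibrillar collagens form the fibers of scar tissue, whereas type IV collagen forms the sheet-like network of basement membranes that underlie epithelia and vessels. In chronically injured liver, hepatic stellate cells that have become myofibroblasts are the chief source of fibrillar collagen, and repeated carbon tetrachloride is a standard way to provoke such scarring. Hepatocytes are a known source of type XVIII collagen, whose terminal fragment is endostatin.

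The targeted gene was examined first. On the log2 scale, Top1mt measured 7.71, 5.99 and 8.01 in the libraries that carry the labels WT replicate 1, 2 and 3, and 5.58, 6.41 and 6.32 in those with the KO labels. WT replicate 2 therefore lay below 2 of the 3 KO libraries, against its label, and every direction given for genotype rests on the labels. KO replicate 1 also stood apart, in that the single transcript Gm42418 made up 17.7% of its summed linear values, against between 0.0199% and 0.387% of those of the other libraries. The deposited values are log2 expression with no read counts, and sequencing depth is therefore unknown. Hepatocyte markers were high in every library, with Alb between 20.26 and 21.12. The 6 tumors are separate samples that the study calls independent and chose at the same size. Whether each came from a different mouse is not given in the sources used here. P-values describe the spread between these tumors.

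Levels per kilobase of exon were compared between genes as log2 values averaged over the 6 libraries. Col18a1 stood first among the 44 collagens at 11.24. Col4a1 (9.07), the fibrillar chain Col3a1 (8.93) and Col4a2 (8.54) followed. Col14a1, a fibril-associated collagen named here for its rank, came next at 8.31, before Col1a1 (7.76) and Col1a2 (7.38), the chains of type I collagen.

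Upstream sequence is shown for 5 genes on which the results turn, taken from RefSeq on GRCm38.p6, in 5′ to 3′ direction along the strand of the gene. Col1a2 (chr6:4505370-4505492, plus strand) and Col3a1 (chr1:45311288-45311537, plus strand) represent fibrillar genes that were high in the same tumors. Col5a3 (chr9:20815118-20815317, minus strand) is the fibrillar gene with another pattern. Col4a5 (chrX:141475169-141475369, plus strand) and Col4a6 (chrX:141474096-141474326, minus strand) lie head to head. Capitals mark matches to short promoter motifs on either strand, none of which overlaps another. The motif searched for the CCAAT box was that name itself. For the GC box, which binds Sp family factors, it was GGGCGG. For the start-positioning element of many regulated genes it was TATAAA.
Col1a2: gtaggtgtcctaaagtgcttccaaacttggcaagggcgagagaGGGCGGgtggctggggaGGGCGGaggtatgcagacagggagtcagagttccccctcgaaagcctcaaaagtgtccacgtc
Col3a1: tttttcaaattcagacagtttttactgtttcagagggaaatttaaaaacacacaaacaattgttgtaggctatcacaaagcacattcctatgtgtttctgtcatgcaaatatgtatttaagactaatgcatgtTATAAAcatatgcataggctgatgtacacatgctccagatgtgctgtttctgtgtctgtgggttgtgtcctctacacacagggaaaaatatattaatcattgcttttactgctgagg
Col5a3: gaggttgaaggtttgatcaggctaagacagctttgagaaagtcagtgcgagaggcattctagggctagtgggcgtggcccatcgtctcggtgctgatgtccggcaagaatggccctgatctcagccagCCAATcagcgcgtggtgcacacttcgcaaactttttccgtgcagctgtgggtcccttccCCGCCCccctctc
Col4a5: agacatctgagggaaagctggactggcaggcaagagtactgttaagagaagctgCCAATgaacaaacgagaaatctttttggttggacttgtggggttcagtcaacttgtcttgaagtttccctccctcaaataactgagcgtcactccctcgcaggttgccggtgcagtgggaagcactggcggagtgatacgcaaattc
Col4a6: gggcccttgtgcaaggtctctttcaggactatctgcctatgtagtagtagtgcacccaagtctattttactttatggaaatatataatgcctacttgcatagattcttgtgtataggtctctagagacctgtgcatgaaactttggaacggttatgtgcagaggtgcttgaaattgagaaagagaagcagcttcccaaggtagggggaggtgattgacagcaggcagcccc

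The printed Col1a2 stretch held 2 copies of GGGCGG and the Col3a1 stretch held 1 TATAAA. That TATAAA lies near the middle of the Col3a1 stretch, and whether it positions a start was not tested. The Col5a3 stretch held 1 CCAAT and 1 copy of GGGCGG, the Col4a5 stretch held 1 CCAAT, and the Col4a6 stretch held 0 matches. Each stretch stops before the first annotated base of its gene, in RefSeq and GENCODE M21, since some transcripts begin upstream of the start site used. The last printed base lies 126 bases before that site for Col1a2, 1 for Col3a1, 51 for Col5a3, 50 for Col4a5 and 20 for Col4a6. Promoter windows, from 250 bases before to 50 after a start site, were matched for 35 of the 44 collagens. Those without an entry were Col12a1, Col14a1, Col1a1, Col22a1, Col26a1, Col2a1, Col4a3, Col5a2 and Col9a3. GGGCGG occurred in the windows of 22 of the 35 genes, or in 60.5% of their 38 windows, against 35.7% of all windows of this length. CCAAT occurred in 34.2% of collagen windows and 37.4% of all windows, and TATAAA in 13.2% and 13.6%. Among the genes printed above, windows also held GGGCGG for Col4a5 and Col4a6 and CCAAT for Col1a2, not within the printed stretches. The start sites of Col4a6 and Col4a5 are 1343 bases apart. Those of Col4a1 and Col4a2, on opposite strands, are 21 bases apart with overlapping first exons. The study's methods name a stranded library kit, but the strand setting of the counting is not given in the sources used here. How reads in such overlaps were assigned is therefore unknown.

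Whether collagen expression differed with genotype was asked first over the whole group. By limma with adjustment over all genes tested, 0 of 42 collagens passed an adjusted p of 0.05, where the share over all genes was 0%. At an unadjusted p under 0.05 there was 1 collagen, Col5a3, which was higher in KO, against 4.34% of all genes (1.79% higher and 2.56% lower in KO). WT and KO values were fully separate in 0 collagens, against 8.28% of all genes (3.95% higher and 4.33% lower in KO). Log2 fold changes, KO minus WT, were below 0 in 32 of the 42, a share of 76.2% against 52.3% of all genes. Their median was -0.36, beside -0.02 over all genes. By subgroup, the median was -0.35 for fibrillar, -0.13 for basement membrane and -0.37 for other collagens, and it ran from -0.86 to 0.19, from -0.26 to 0.0051 and from -0.54 to -0.07 when single libraries were left out.

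This excess of values below 0 depended on which tumors were included. Without KO replicate 1, 21 of the 42 collagens were below 0 and the median was 0.0034. Leaving out WT replicate 1 instead gave 24 below 0 and a median of -0.04. Among the fibrillar collagens, 5 of 6 were below 0 with all libraries and 1 of 6 when either of these libraries was left out. Without both WT replicate 2 and KO replicate 1, 29 of the 42 collagens were below 0, against 53.5% of all genes. The median was then -0.13, and 3 of the 6 fibrillar collagens were below 0. Fewer cells of a type and less RNA per cell cannot be told apart in such bulk tissue.

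**Figure D1:**
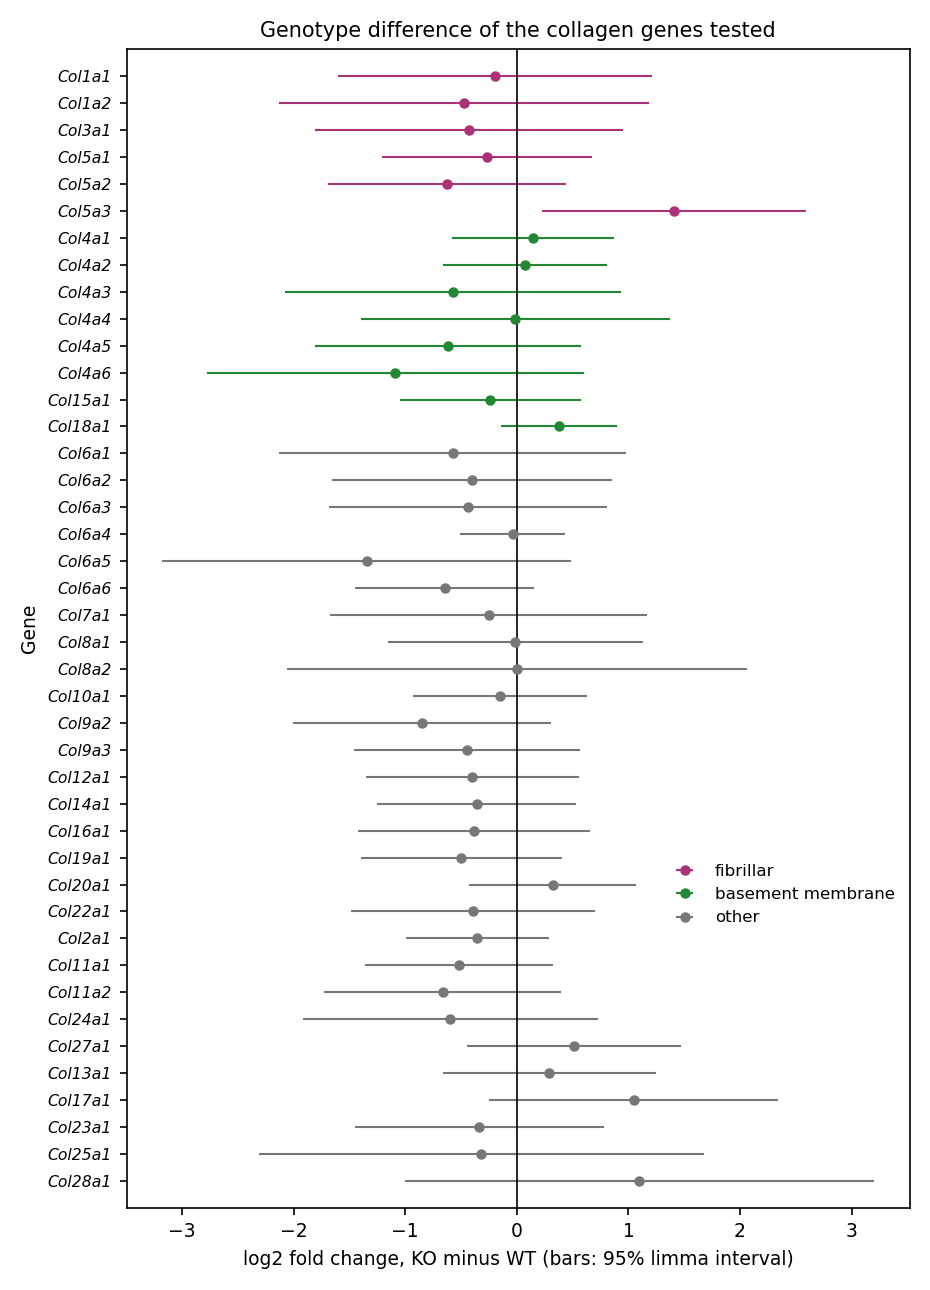
Log2 fold change (KO minus WT, horizontal axis) of each of the 42 tested collagens, with points for limma estimates, bars for 95% intervals and colors for the subgroups. The interval excludes 0 only for Col5a3 (0.23 to 2.59), and 32 points lie left of 0.

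At the median, collagens varied more between tumors than all genes tested did. All genes include weak ones, whose values such a scale may draw together, and genes of similar level were not compared. The SD over the 6 libraries, a difference on the log2 scale, had a median of 0.68 for collagens and 0.40 for all genes tested. The distance from the lowest to the highest library had a median of 1.80 for collagens, 2.44 for the fibrillar subgroup and 1.03 for all genes. WT replicate 1 was the highest library in 21 of 42 collagens, against 17.1% of all genes. KO replicate 1 was the lowest in 19 of 42, also against 17.1% of all genes. The pair of WT replicate 1 and KO replicate 2 held the highest positions in 18 of 42, against 7.46% of all genes. High collagen was found in 1 tumor of each genotype. The collagens share these 6 libraries, so the counts are a description.

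**Figure D2:**
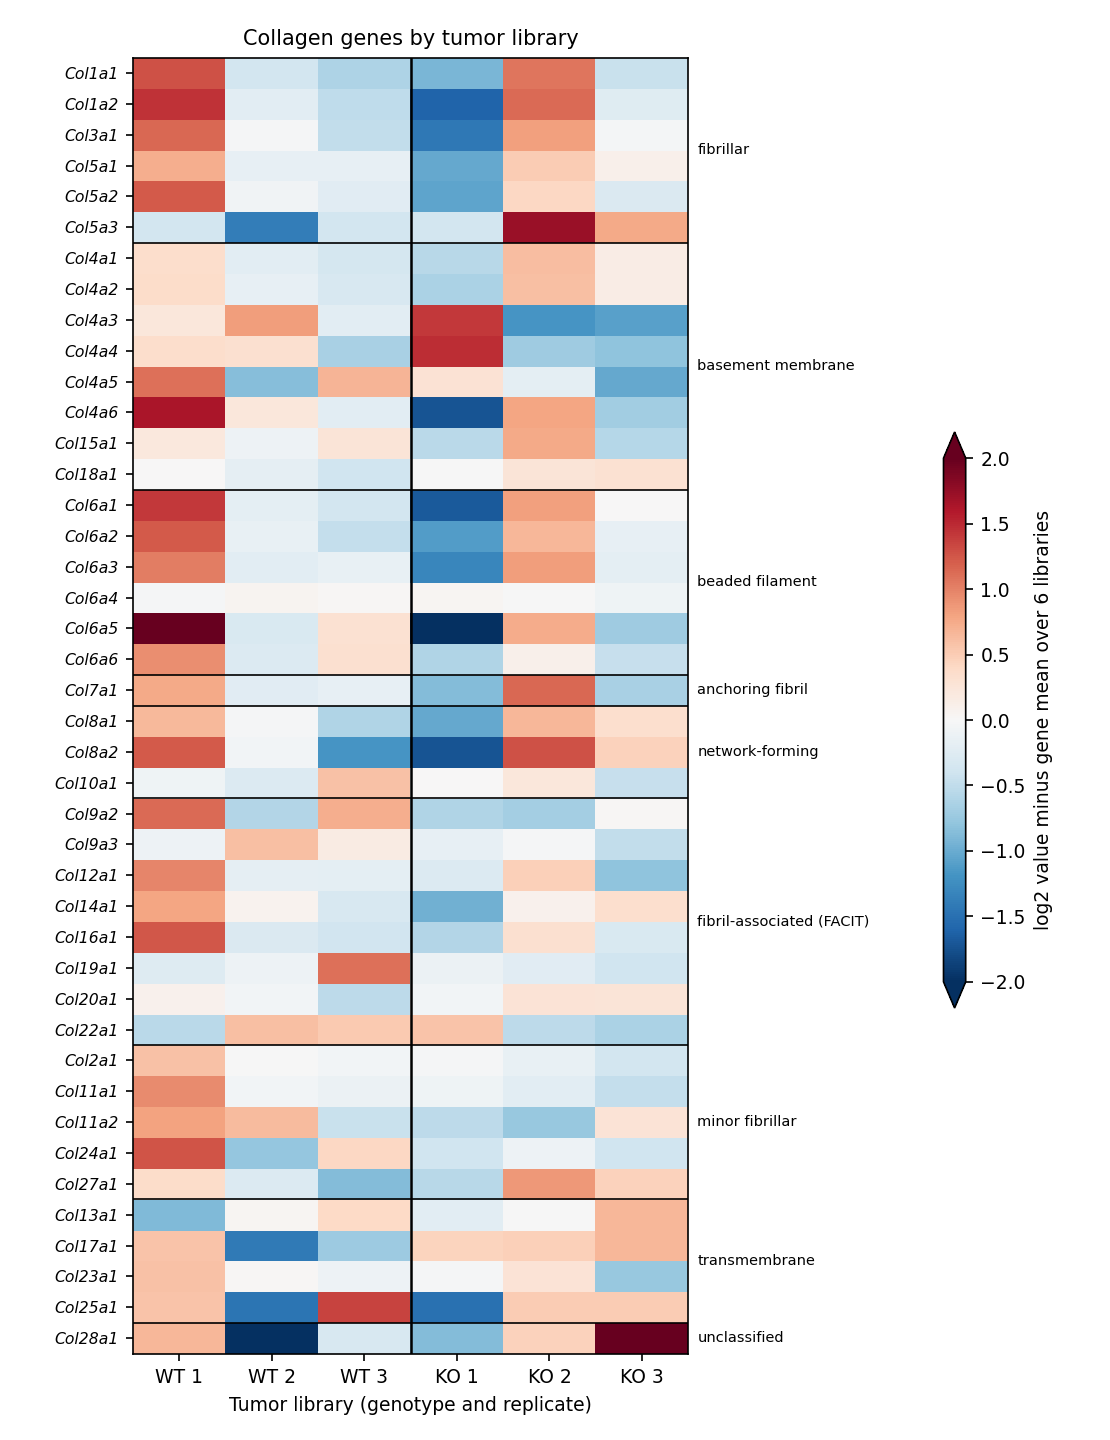
Each tested collagen (rows, grouped by class) in each tumor library (columns), colored by its log2 value minus the mean of that gene over 6 libraries, with the color scale ending at -2 and 2. WT replicate 1 and KO replicate 2 are red in most fibrillar and beaded filament rows, and KO replicate 1 is blue in most of them.

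Type I and type III collagen make up the bulk of scar fibers. Col1a1, the major chain of type I, had log2 values of 11.75, 10.11 and 9.86 in WT replicates 1, 2 and 3 and of 9.57, 11.54 and 10.03 in the KO replicates. Col1a2, its partner chain, had 12.45, 10.80 and 10.51 in WT and 9.42, 12.15 and 10.77 in KO. The values of Col3a1, the single chain of type III, were 13.38, 12.20 and 11.73 in WT and 10.79, 13.05 and 12.18 in KO. For all 3 genes WT replicate 1 and KO replicate 2 were high, KO replicate 1 was lowest, and the genotypes overlapped. The log2 fold changes were -0.20 ± 0.61 (SE, n = 3 per group) for Col1a1, -0.48 ± 0.72 for Col1a2 and -0.43 ± 0.60 for Col3a1, and limma's adjusted p was 0.999 for each. Each turned positive without KO replicate 1, at 0.21, 0.20 and 0.18, and also without WT replicate 1, at 0.39, 0.12 and 0.04. The sign of the genotype difference in scar collagens thus depended on these libraries.

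Type V collagen is the minor fibrillar type that sits in the core of type I fibers. Col5a1, its common chain, had values of 10.14, 9.25 and 9.24 in WT and 8.39, 9.92 and 9.51 in KO, and Col5a2 had 10.54, 9.25 and 9.09 in WT and 8.25, 9.73 and 9.03 in KO. Both had the same high and low libraries as type I. Col5a3, an alternative chain found in a subset of type V molecules, had values of 8.07, 7.05 and 8.07 in WT and 8.07, 10.16 and 9.19 in KO. KO replicates 2 and 3 lay above every WT library, while KO replicate 1 was level with WT replicates 1 and 3. The WT mean was 7.73 ± 0.59 (SD, n = 3) and the KO mean 9.14 ± 1.05 (SD, n = 3). The log2 fold change was 1.41 with a 95% interval of 0.23 to 2.59, and limma's adjusted p was 0.999. An exact two-sided permutation test gave p = 0.3, where 0.1 is the smallest possible. When single libraries were left out, the log2 fold change stayed above 0 and ran from 0.90, without KO replicate 2, to 1.94, without KO replicate 1. It was 1.07 without WT replicate 2, whose Top1mt value went against its label. Col5a3 did not pass correction over all genes.

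**Figure D3:**
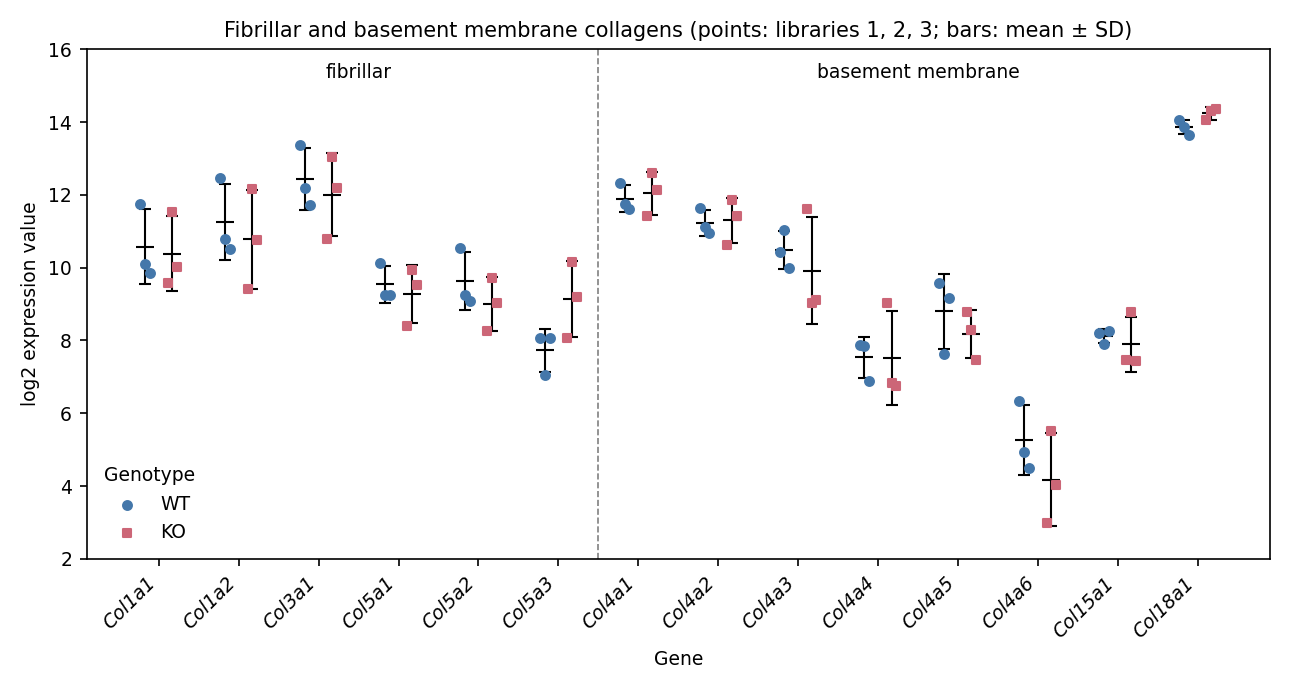
Log2 expression (vertical axis) of the 6 fibrillar and 8 basement membrane collagens, with a point per tumor library (WT circles, KO squares, replicates 1 to 3 from left to right) and bars for mean ± SD of 3 libraries. WT and KO points overlap for every gene, and for Col5a3 the overlap is between KO replicate 1 and WT replicates 1 and 3, all at 8.07.

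Type IV chains fell into sets with different profiles over the tumors. Col4a1 and Col4a2 form the common network of nearly all basement membranes. Col4a1 had values of 12.31, 11.76 and 11.62 in WT and 11.41, 12.59 and 12.12 in KO, and Col4a2 had 11.63, 11.11 and 10.94 in WT and 10.63, 11.86 and 11.41 in KO. KO replicate 2 was highest and KO replicate 1 lowest for both chains, with WT and KO overlapping. Their log2 fold changes were 0.14 ± 0.31 (SE, n = 3 per group) and 0.07 ± 0.32.

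Col4a3 and Col4a4, partner chains best known from the kidney glomerulus, had another profile. Col4a3 had values of 10.44, 11.04 and 10.003 in WT and 11.62, 9.03 and 9.12 in KO, and Col4a4 had 7.88, 7.85 and 6.89 in WT and 9.02, 6.83 and 6.74 in KO. KO replicate 1, the lowest library for type I collagen, was the highest for these chains, and KO replicates 2 and 3 lay below all WT values. The log2 fold changes were -0.57 ± 0.65 (SE, n = 3 per group) and -0.01 ± 0.60. Without KO replicate 1 they were -1.42 and -0.76.

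Col4a5 and Col4a6 assemble with each other in epithelial and smooth muscle basement membranes. Col4a5 had values of 9.59, 7.64 and 9.16 in WT and 8.78, 8.29 and 7.47 in KO. Col4a6 was weaker, at 6.35, 4.94 and 4.51 in WT and 2.995, 5.52 and 4.02 in KO. WT replicate 1 was highest for both, but the lowest library differed, and the genotypes overlapped. The log2 fold changes were -0.62 ± 0.52 (SE, n = 3 per group) and -1.09 ± 0.73. With single libraries left out they ran from -1.20 (without WT replicate 2) to -0.22 (without WT replicate 1) for Col4a5, and from -1.76 (without KO replicate 2) to -0.50 (without KO replicate 1) for Col4a6.

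Col15a1 and Col18a1 encode the collagens that carry endostatin-like fragments. Col15a1 had values of 8.22, 7.90 and 8.26 in WT and 7.47, 8.77 and 7.43 in KO, with a log2 fold change of -0.24 ± 0.35 (SE, n = 3 per group). Col18a1 had 14.06, 13.88 and 13.66 in WT and 14.04, 14.31 and 14.36 in KO. KO replicates 2 and 3 were above every WT library, and KO replicate 1 lay just below WT replicate 1. The log2 fold change of Col18a1 was 0.38 with a 95% interval of -0.14 to 0.89, limma's adjusted p was 0.999, and the exact two-sided permutation p was 0.2. Its SD over the 6 libraries was 0.27, the smallest of the 14 fibrillar and basement membrane genes. The most abundant collagen was therefore also among the steadiest.

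Chains of the same collagen type, and Col3a1 with Col1a1, were compared within a library, where scaling between libraries cancels. The 10 pairs were chosen after the values were seen, so no test is given. Col1a2 minus Col1a1 was 0.70, 0.69 and 0.65 in the WT libraries and 0.61 and 0.73 in KO replicates 2 and 3, but -0.15 in KO replicate 1. Col6a2 minus Col6a1 was between -0.67 and -0.46 in those 5 libraries and 0.08 in KO replicate 1. The tumor lowest in type I and type VI collagen thus also had other chain proportions than the other tumors. Col4a2 minus Col4a1 was the steadiest pair, from -0.78 to -0.66 over all 6 libraries. Col4a5 minus Col4a6 was the least steady, from 2.70 to 5.78. The WT libraries had -2.07, -2.19 and -1.17 for Col5a3 minus Col5a1, and the KO libraries had -0.32, 0.24 and -0.33. These differences did not overlap between the genotypes, and KO replicate 1 was among the KO values here. In KO replicate 1, however, Col5a3 itself was level with WT replicates 1 and 3 at 8.07, while Col5a1 was at its lowest, 8.39. The genotypes were also separate for Col4a2 minus Col4a1, with a mean difference of -0.07. No share over other gene pairs was computed to read these separations against.

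**Figure D4:**
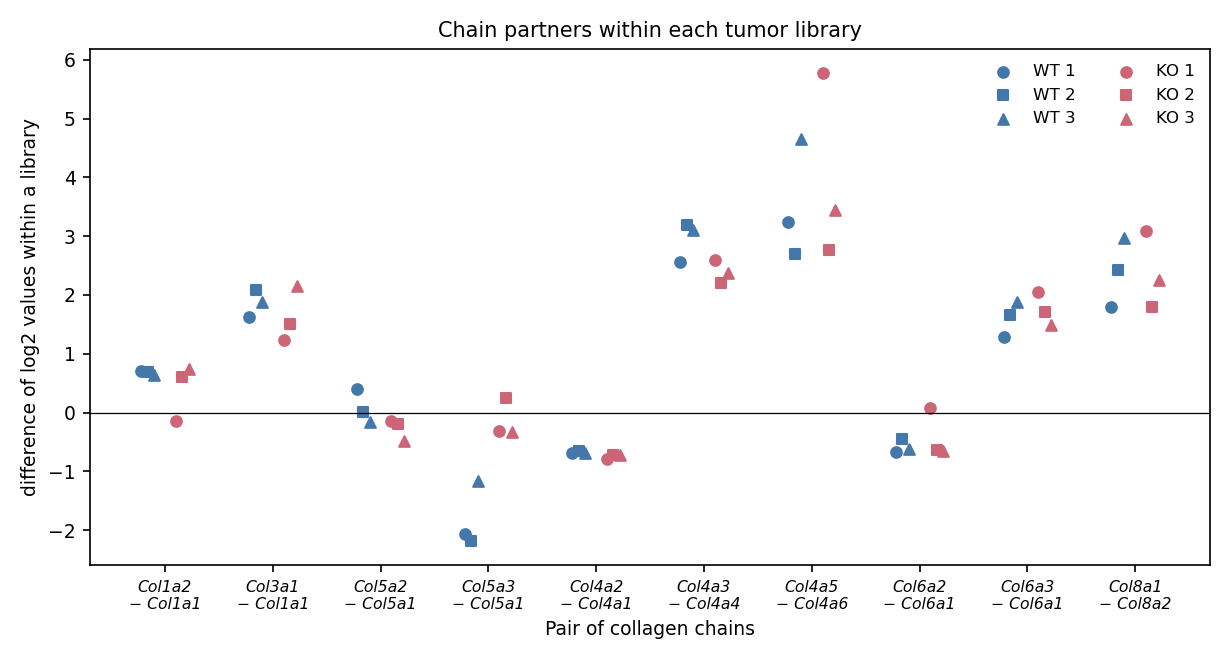
Difference of log2 values between a pair of collagen chains in the same library (vertical axis) for 10 pairs, with WT in blue, KO in red and a symbol per replicate. KO replicate 1 departs from the other 5 libraries for Col1a2 minus Col1a1 (-0.15) and Col6a2 minus Col6a1 (0.08), and WT and KO separate for Col5a3 minus Col5a1.

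Among the 30 other collagens, 28 were tested, and 22 had a log2 fold change below 0. Type VI collagen forms beaded filaments around cells. All 6 of its chains were below 0, with a median of -0.51. Without KO replicate 1 only 3 were below 0 and the median was -0.0070, with Col6a1 at 0.12, Col6a2 at 0.06 and Col6a3 at 0.11. For 5 of them WT replicate 1 was highest and KO replicate 1 lowest. The sixth, Col6a4, was a weak gene that stayed between -0.30 and -0.16 in all libraries. Its log2 fold change was only -0.04, or -0.07 without KO replicate 1. Col6a5, an alternative type VI chain, had values of 8.04, 5.72 and 6.32 in WT and 3.96, 6.77 and 5.32 in KO. Its log2 fold change of -1.34 ± 0.79 (SE, n = 3 per group) was the most negative of the 42 collagens tested, and it was -0.65 without KO replicate 1.

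Col28a1, a rarely expressed collagen with von Willebrand factor A domains, had the largest SD of the 42 collagens over the 6 libraries, 1.39 against 1.38 for Col6a5, while Col6a5 had the larger range, 4.07 against 4.05. Its values were 3.40, 0.74 and 2.42 in WT and 1.87, 3.20 and 4.79 in KO, with a log2 fold change of 1.10 ± 0.91 (SE, n = 3 per group) that ran from 0.35 (without KO replicate 3) to 1.81 (without KO replicate 1). Col17a1, a transmembrane collagen of hemidesmosomes, had 4.56, 2.57 and 3.25 in WT and 4.43, 4.45 and 4.64 in KO. The KO values lay close together and only WT replicate 1 reached them. The log2 fold change was 1.05 ± 0.56 (SE, n = 3 per group) and ran from 0.60 (without WT replicate 2) to 1.60 (without WT replicate 1). Col8a2, a network-forming collagen of vessel walls and the cornea, had 5.18, 3.89 and 2.76 in WT and 2.22, 5.21 and 4.41 in KO, and WT replicate 1 and KO replicate 2 were again the high libraries. Its log2 fold change was 0.0021 ± 0.89. Limma's adjusted p was 0.999 for Col28a1 and Col17a1. The 8 fibril-associated collagens had a median of -0.39 and the 5 minor fibrillar collagens one of -0.52. These medians were -0.27 and -0.15 without WT replicate 1, and -0.42 and -0.55 without KO replicate 1. The -0.52 is the value of Col11a1, a weak gene with log2 values from -0.01 to 1.42. Transmembrane collagens, 4 genes, had a median of -0.01.

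Proteins that process, bind or signal to collagen were described by lists. By limma, 0 of their genes passed an adjusted p of 0.05, and counts at an unadjusted p under 0.05 are read against 4.34% of all genes and counts below 0 against 52.3%. Of 25 matrix proteins that associate with collagen, 22 were below 0 with a median of -0.37, and 0 had an unadjusted p under 0.05. Of the 25, 16 were below 0 without KO replicate 1 (median -0.13) and 14 without WT replicate 1 (median -0.07). WT replicate 1 was highest in 20 and KO replicate 1 lowest in 17, each against 17.1% of all genes, and KO replicate 2 was highest in 2. The 2 with the smallest p were Dcn and Ogn, small proteoglycans that bind collagen fibers, with log2 fold changes of -0.69 and -0.72, or -0.29 and -0.51 without KO replicate 1. Of 22 genes for chain folding and hydroxylation in the endoplasmic reticulum, 14 were below 0 with a median of -0.07, and 0 had an unadjusted p under 0.05. Leaving out KO replicate 1 gave 15 below 0, and leaving out WT replicate 1 gave 7. Plod2, a lysyl hydroxylase, had a log2 fold change of -0.54, which was -0.04 without WT replicate 1. Fkbp10, a collagen chaperone, had -0.64, which was -0.18 without KO replicate 1.

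Of 15 genes for procollagen cleavage and cross-linking, 8 were below 0 with a median of -0.03, and the count below 0 was 5 or 3 when KO replicate 1 or WT replicate 1, respectively, was left out. The 1 with an unadjusted p under 0.05 was Loxl4, a lysyl oxidase that cross-links fibers. Loxl4 had values of 6.33, 6.98 and 6.71 in WT and 8.28, 6.66 and 9.11 in KO, where replicates 1 and 3 were high and replicate 2 was not. Its log2 fold change ran from 0.80 (without KO replicate 3) to 2.02 (without KO replicate 2). Of 15 basement membrane partners, 13 were below 0 with a median of -0.14, and KO replicate 1 was lowest in 10. Only 8 were below 0 without KO replicate 1 (median -0.06) and 10 without WT replicate 1 (median -0.05). The 1 with an unadjusted p under 0.05 was the laminin chain Lamc3, with 7.86, 7.36 and 6.01 in WT and 4.86, 6.28 and 5.85 in KO. Of 10 collagen receptors, 7 were below 0 with a median of -0.18, and 0 had an unadjusted p under 0.05. The count was 7 without KO replicate 1 (median -0.06) and 6 without WT replicate 1 (median -0.08). The receptor kinase Ddr2 had 8.48, 7.85 and 7.80 in WT and 6.68, 7.78 and 7.79 in KO. All KO values lay below all WT values, though KO replicates 2 and 3 lay only just below, and the log2 fold change of -0.63 was -0.26 without KO replicate 1. The integrin chain Itga2 had a log2 fold change of -0.51, which was -0.22 without WT replicate 3. Of 19 genes of TGF-beta signalling, the main pathway that induces collagen in stellate cells, 17 were below 0 with a median of -0.13, and 0 had an unadjusted p under 0.05. Leaving out KO replicate 1 gave 13 below 0, and leaving out WT replicate 1 gave 12. Ltbp3, which stores latent TGF-beta, had a log2 fold change of -0.89, or -0.48 without WT replicate 1, and Smad4, the shared signal transducer, had 0.21.

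Markers of stellate cells and myofibroblasts were set beside fibrillar collagen in each tumor. As the mean of gene-centred log2 values, fibrillar collagen stood at 0.91, -0.37 and -0.40 in WT replicates 1, 2 and 3 and at -1.06, 0.95 and -0.03 in the KO replicates. The 14 stellate and myofibroblast markers stood at 0.68, 0.0073 and -0.09 in WT and at -0.82, 0.25 and -0.03 in KO. Both sets had KO replicate 1 lowest and WT replicate 1 and KO replicate 2 highest. Of these markers 12 were below 0 with a median of -0.45, and 8 were below 0 without KO replicate 1 (median -0.08) or without WT replicate 1 (median -0.10). The 2 above 0 were Acta2 at 0.39 and Ngfr at 0.27. Acta2 was highest in KO replicate 3 (8.75) and lowest in WT replicate 3 (6.63). Lrat, a vitamin A storage enzyme of stellate cells, had an unadjusted p under 0.05 with a log2 fold change of -0.79. The log2 of their summed level had another order, with 13.81, 13.73 and 13.48 in WT and 13.75, 13.02 and 13.06 in KO, where KO replicate 1 was the second highest and KO replicate 2 the lowest library. The strongest of them, the matrix protein Reln, was highest in KO replicate 1 at 13.50 and lowest in KO replicate 2 at 11.93. Among the 14 markers the lowest log2 value was 2.56, for Thy1 in KO replicate 1. Basement membrane collagens stood at 0.53, -0.02 and -0.15 in WT and at -0.04, 0.12 and -0.45 in KO, which is a smaller spread than that of fibrillar collagen.

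Endothelial markers, 12 genes, stayed between -0.18 and 0.21 in all libraries, with a median log2 fold change of 0.02. Their summed level ran from 13.44 to 13.79 in WT and from 13.45 to 13.80 in KO. Cdh5, the adhesion protein of endothelial junctions, had values of 9.96, 9.47 and 9.78 in WT and 10.09, 10.07 and 10.26 in KO without overlap. Bile duct markers, 8 genes, stood at 0.37, -0.04 and 1.08 in WT and at -0.93, -0.12 and -0.36 in KO, with a median log2 fold change of -0.94. Their summed level ran from 11.66 to 12.66 in WT and from 11.77 to 12.64 in KO. The keratin Krt19 had 6.11, 4.75 and 6.93 in WT and 2.86, 4.38 and 2.502 in KO, with limma's adjusted p at 0.987. Krt7, its partner in duct cells, had 6.23, 5.35 and 6.04 in WT and 2.57, 5.42 and 3.06 in KO. The part of these cell types in the collagen values was not tested.

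**Figure D5:**
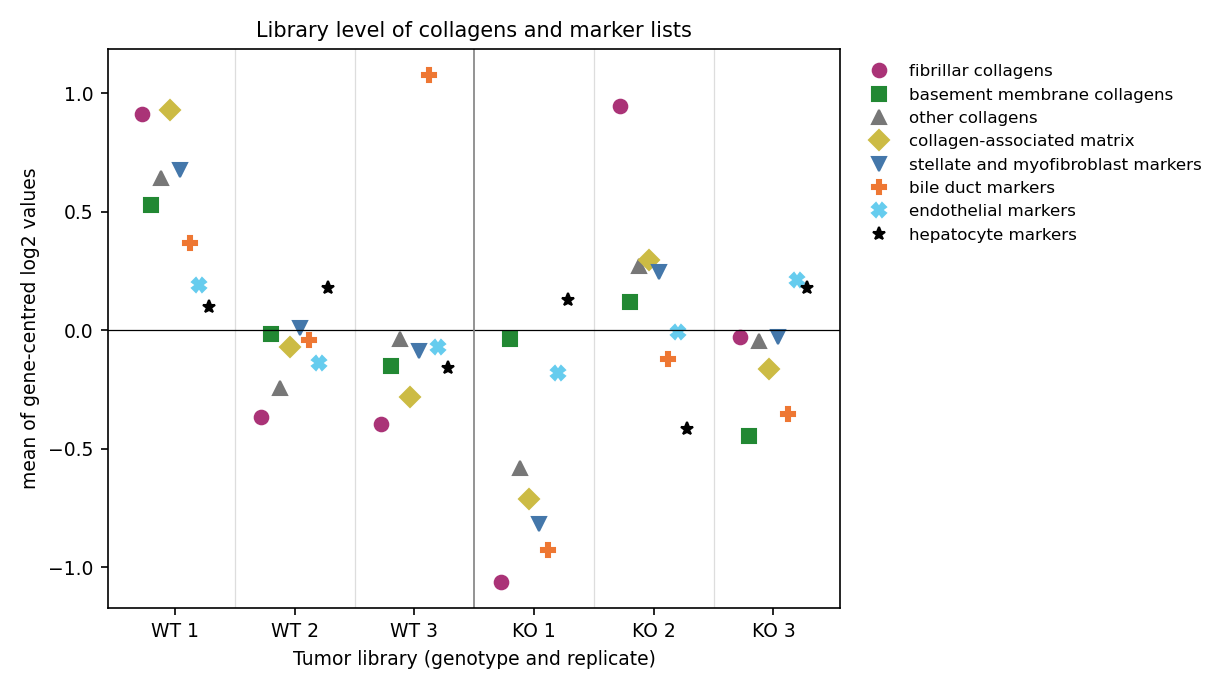
Mean of gene-centred log2 values (vertical axis) of collagen subgroups, collagen-associated matrix proteins and cell type markers in each tumor library, with a symbol per set. Fibrillar collagen is highest in WT replicate 1 (0.91) and KO replicate 2 (0.95) and lowest in KO replicate 1 (-1.06), and endothelial markers stay between -0.18 and 0.21.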

How the data were processed

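RNA-seq of 6 mouse liver tumors (3 WT, 3 Top1mt-KO) was used, grouped by the genotype in their labels. The deposited table holds log2 expression per gene symbol, made by the authors, and the transform is not given in the sources used here. The values behave like a regularized log, which draws weak genes toward their mean. The study's methods name Trimmomatic, BWA, a genome called Mm 8, featureCounts and DESeq2, whereas the submitters' processing notes name bcl2fastq 2.17, Trimmomatic 0.36, STAR 2.5.1, Subread, DESeq2 and GRCm38. Counts and depth are unknown, so no count model was run. The 3 unnamed columns were not used.

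WT and KO were compared in R 4.3.3 with limma 3.58.1 (lmFit, eBayes with a trend, Benjamini-Hochberg adjustment) on 22677 genes with a mean above the lowest 25%, tested on simulated data. Single values were compared by exact permutation tests over 20 splits. Lists were described by counts and medians. Exon lengths came from GENCODE M21 and promoter windows from RefSeq GRCm38.p6.

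Genes named were Top1mt, all fibrillar and basement membrane collagens, other collagens with an unadjusted p under 0.05, non-overlapping groups, the 3 largest fold changes or the 3 largest SDs, and in each list those with an unadjusted p under 0.05 or otherwise the 2 smallest p. Other names are given with their rank or after their values were seen. The collagens, gene lists and markers were chosen with earlier results of these data known. Alternatives were no trend, quantile normalization, no filter, a filter at the median, a replicate block, each library left out, and WT replicate 2 and KO replicate 1 left out together. Deviations of same-numbered libraries from their group means had correlations of -0.12, -0.08 and 0.05, so numbers were not treated as pairs.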

Additional observations from a re-analysis of the deposited data

How the results depend on the processing

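The count of collagens with an adjusted p under 0.05 by limma was 0 under every alternative listed in the processing summary. At an unadjusted p under 0.05 there were 0 collagens without the trend, 4 without WT replicate 2 and KO replicate 1 together, and 0 to 3 when single libraries were left out, where the shares over all genes were 4.62%, 5.96% and 3.79% to 5.97%. Groups did not overlap for 2 collagens (Col17a1 and Col5a3) after quantile normalization, where the share over all genes was 8.44%, for 13 without WT replicate 2 and KO replicate 1, where the share over all genes was 33.6%, and for 2 to 8 when single libraries were left out, where it was 15.9% to 21.5%. Over all genes, 4 had an adjusted p under 0.05 without a filter, and 0 to 1 when single libraries were left out, the 1 without KO replicate 1. The cause of these moves was not tested beyond the fewer samples or other genes that each fit holds.

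Among 40 named genes, the direction turned in 9 when a library was left out. The ranges of their log2 fold changes were -0.78 to 0.39 for Col1a1, -1.16 to 0.20 for Col1a2, -0.95 to 0.18 for Col3a1, -0.59 to 0.18 for Col5a1, -0.13 to 0.46 for Col4a1, -0.21 to 0.41 for Col4a2, -0.76 to 0.38 for Col4a4, -0.63 to 0.87 for Col8a2 and -0.52 to 0.069 for Cd5l. Without WT replicate 2 and KO replicate 1 together, Col3a1 was at 0.06 and Col5a1 at 0.03. The median of fibrillar collagens turned from -0.35 to 0.19 without KO replicate 1 and to 0.08 without WT replicate 1, and that of basement membrane collagens to 0.0051 without KO replicate 3. With the replicate number as a block, 0 genes had an adjusted p under 0.05, and the 1 collagen at an unadjusted p under 0.05 was again Col5a3, among 912 genes. The numbers do not pair the libraries. The counts of list genes below 0 without single libraries were added after the data were seen. Quantile normalization, likewise added for the counts of highest and lowest libraries, left WT replicate 1 highest in 20 collagens and KO replicate 1 lowest in 19. Unknown depth leaves weak genes such as Col9a1 and Col26a1 without a measure of precision.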

Other observations

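The 7 macrophage markers stood, as the mean of gene-centred log2 values, at -0.20, -0.43 and 0.75 in WT replicates 1, 2 and 3 and at -0.44, 0.14 and 0.19 in the KO replicates. WT replicate 3 was highest for 6 of them, and the median log2 fold change was -0.04. Cd5l, a secreted Kupffer cell protein, had a log2 fold change of -0.29, and the lysozyme Lyz2 had -0.38. The 8 lymphocyte markers were weakly expressed, with a median of 0.17, and the T cell receptor complex chains Cd3e and Cd3g had opposite signs, at -1.03 and 0.90. The 4 smooth muscle markers were all below 0 with a median of -0.22, and the contractile regulator Cnn1 had -0.95 and the kinase Mylk -0.31. Without KO replicate 1, 2 of the 4 were below 0 (median -0.08), and without WT replicate 1, 3 were (median -0.06). Hepatocyte markers, 8 genes, had a median of -0.10, and Cyp2e1, the enzyme that activates carbon tetrachloride, had -0.89 with an unadjusted p of 0.0422 in limma and overlapping groups.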
